A study of Mus musculus with 6 samples.

Results

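The regions described here are autosomal stretches of the mouse genome that were closed in fibroblasts, partly open in reprogramming intermediates and open in the pluripotent cells made from them. Accessibility was measured by ATAC-seq, in which a transposase inserts sequencing adapters into open chromatin, so that more reads in a region stand for a more accessible region. A region was included when it lay on chromosomes 1 to 19 and had fewer than 25 normalised counts (reads divided by the size factor of the library) in mouse embryonic fibroblasts (MEFs) at day 0. It also needed at least 25 and fewer than 100 in each of days 8, 9 and 10, and at least 100 in induced pluripotent stem cells (iPSCs). These bounds were met by 3505 of the 223596 regions in the table, which are called members below and are 1.61% of the 218231 autosomal regions. Day 12 was the only library that the bounds did not use. All values from the other 5 libraries describe what was selected and support nothing on their own.

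The cells were female and hybrid, from Mus musculus mothers with a GFP reporter on the X chromosome and Castaneus fathers. The MEFs of day 0 had been transduced with lentiviruses carrying c-Myc, Klf4, Sox2 and Oct4 under doxycycline control (tetO-FUW-OSKM) and its activator (FUW-M2rtTA), selected by sorting as cells whose X with GFP was inactive, and not yet given doxycycline. The intermediates of days 8, 9, 10 and 12 came from such cells kept under doxycycline and ascorbic acid in mouse embryonic stem cell medium with LIF. They were sorted for the surface antigen SSEA1, so they stand for the cells that had gained this marker and not for the whole culture. The iPSCs came from picked colonies, of which the labels give no number, grown after doxycycline and ascorbic acid were withdrawn. All 6 titles call the cells GFP-negative. Each of the 6 time points was 1 library, so differences between time points could not be set against the spread of replicates, and p-values were not computed. The table identifies a region by row number and chromosome, so no gene, sequence or cell type marker could be read from it, and regions are named here by row number.

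In reprogramming, the introduced factors bind DNA, in part within closed chromatin, and recruit machinery that moves nucleosomes. Enhancers of the starting fibroblast lose accessibility, other sites open for a time, and enhancers and promoters used by pluripotent cells open in steps. Some of these pluripotency sites open under the introduced factors early, and others only once the cell's own pluripotency network is active. A bulk library counts the reads of many cells together. An intermediate value can therefore mean that a region was open in fewer cells or that it was less open in each cell, and these cannot be told apart here.

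The 6 libraries held 22067333 to 32844411 reads in regions. MEF day 0 stood apart in its scaling, with a size factor of 0.498 where the other libraries had 0.798 to 1.40, so that 1 read was worth 2.01 normalised counts there and 0.714 to 1.25 elsewhere. The lower bound of 25 normalised counts was therefore 12.45 reads in MEF day 0. The set was also formed without the MEF bound, as given below.

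Before any fold is given, the levels show what partly open meant in these libraries. The members had a median of 14.1 normalised counts in MEF day 0 (7 reads), with a lowest value of 2.01 and a highest of 24.1. Their median was 48.0 at day 8, 46.4 at day 9 and 49.8 at day 10. At day 12 it was 82.8, with a lowest value of 12.6 and a highest of 368. In iPSC it was 169, with values from 100.3 to 1145. All autosomal regions together had medians of 40.2, 45.2, 43.5, 41.1, 42.3 and 41.4 normalised counts in the same order of libraries. Members thus lay far under the typical autosomal region in MEFs, at its level in the intermediates of days 8 to 10, and above it at day 12 and in iPSC. A value between the bounds was common in the intermediates, since 28.2% of all autosomal regions kept within 25 to 100 on each of days 8, 9 and 10.

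**Figure D1:**
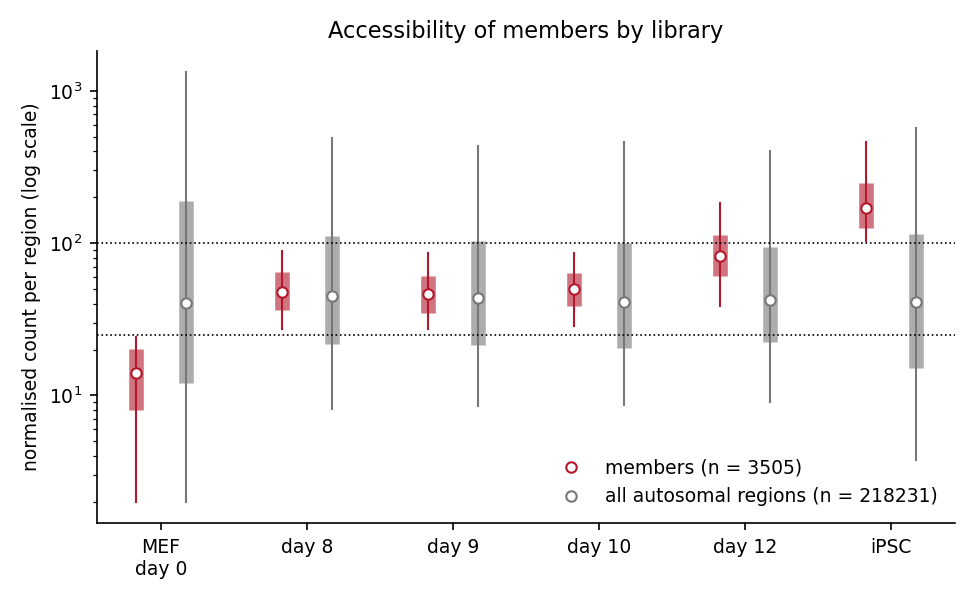
Normalised counts per region (log axis) in each of the 6 libraries, for the 3505 members (red) and all 218231 autosomal regions (grey). Open circles are medians, thick bars run from the 25th to the 75th percentile, thin lines from the 5th to the 95th, and dotted lines mark the bounds of 25 and 100. Members sit at the grey median at days 8 to 10 and above it at day 12, where their median was 82.8 against 42.3.

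The members closest to the middle of the group show the course in single regions. The region in row 185771 on chromosome 7 had 8 reads in the MEFs, then 56, 62 and 70 on days 8, 9 and 10, 96 on day 12 and 135 in iPSC, which are 16.1, 50.7, 44.3, 55.3, 86.4 and 169 normalised counts. On chromosome 11, row 33853 had 14.1, 50.7, 49.3, 49.0, 91.8 and 202 normalised counts in the same order. Row 182160, also on chromosome 7, had 12.0, 48.9, 46.4, 56.1, 94.5 and 160. In all 3 the days 8 to 10 formed a plateau, and day 12 was the first library above it. In row 185771 the ratio of day 12 to day 10 was 1.56 (95% exact interval 1.14 to 2.16), so even the typical member was separated from its day 10 value by little more than counting error. These intervals describe the counting of reads alone, because PCR copies are not separate molecules and the spread between cultures was not measured.

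The direction of the first step was fixed by the bounds. At least 2-fold higher at day 8 than in MEF day 0 were 2962 members (84.5%), where 35.3% of all autosomal regions were, and none was 2-fold lower, against 35.2%. On the plateau differences were small and went in both directions. From day 8 to day 10 the median difference was 0.04 on the deposited log2 scale, against -0.07 over all autosomal regions. Higher at day 10 were 53.8% of members, where 44.8% of all autosomal regions were. On the same scale the highest and lowest of the 3 days differed by a median of 0.50 within a member. At least 2-fold higher at day 10 than at day 8 were 81 members (2.31%), where 5.55% of all autosomal regions were, and at least 2-fold lower were 58 (1.65%), where 8.45% were. Between adjacent days, 26 members (0.742%, against 4.85% of all autosomal regions) were 2-fold higher and 40 (1.14%, against 5.21%) 2-fold lower at day 9 than at day 8, and 71 (2.03%, against 3.87%) were higher and 27 (0.770%, against 4.67%) lower at day 10 than at day 9. The bounds limit how far a member could move between these days, so these smaller shares describe the selection.

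Day 12 was the only library outside the rule, but its neighbours were inside it. Over all autosomal regions the log2 values of day 12 had a Pearson r of 0.841 with day 10 and 0.784 with iPSC, and the rule held day 10 below 100 and iPSC at 100 or more. A higher day 12 than in unselected regions is therefore in large part set by the choice of members, and the values that follow are a description. Of the 3505 members 1199 had reached 100 normalised counts at day 12, which is 34.2% (95% Wilson interval 32.7% to 35.8%), while 2284 (65.2%) were still within 25 to 100 and 22 (0.628%) were below 25. Of all autosomal regions, 23.3% had at least 100 at day 12. With libraries scaled to equal autosomal totals, the bounds gave 6498 regions, of which 51.6% were at 100 or more at day 12, against 31.2% of all autosomal regions. The median difference from day 10 to day 12 was 0.75 on the log2 scale in members, with quartiles of 0.33 and 1.15, and -0.07 over all autosomal regions. At least 2-fold higher at day 12 than at day 10 were 1166 members (33.3%), where 13.4% of all autosomal regions were. At least 2-fold lower were 6 members (0.171%), against 13.7% of all autosomal regions. At a 4-fold threshold the members no longer exceeded all autosomal regions, with 1.80% against 2.08%. These shares start from unlike levels, as the 5th percentile at day 10 was 28.4 normalised counts in members and 8.69 over all autosomal regions. With a median of 0.75 and an upper quartile of 1.15, the day 12 difference of members was frequent but moderate in size.

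The same step was examined against counting error in each region. For 2312 members (66.0%) the 95% exact interval of the ratio of day 12 to day 10 lay above 1, which 24.6% of all autosomal regions also showed, and for 47 members (1.34%) it lay below 1, against 28.9%. Among regions with 2 to 21 reads, even read numbers were 1.53 times as frequent as odd ones in MEF day 0. This ratio was 0.985 to 1.17 in the other libraries, with 1.00 at day 10 and 0.985 at day 12. The reads may include both ends of a fragment, although the 2 libraries of this step showed no excess of even numbers. With read numbers divided by 2, the interval lay above 1 in 1883 members (53.7%) and in 16.6% of all autosomal regions.

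Day 12 lay between the plateau and the end state in most members. It was above day 10 and below iPSC in 3082 members (87.9%), an order seen in 35.0% of all autosomal regions. In 55 members (1.57%) day 12 was at or above iPSC, and in 368 (10.5%) it was at or below day 10, where these shares were 46.7% and 53.1% of all autosomal regions. An increase at every step from MEF day 0 through days 8, 9, 10 and 12 to iPSC was seen in 634 members (18.1%), against 1.65% of all autosomal regions. Day 12 was above all of days 8, 9 and 10 and below iPSC in 2653 members (75.7%, against 28.5%), and below all of days 8, 9 and 10 in 207 (5.91%, against 39.6%). The bounds placed MEF day 0 below days 8 to 10, and these days below iPSC, in advance. They did not set the order among days 8, 9 and 10. Day 12 had no bound of its own, but its neighbours day 10 and iPSC did, so its place was in large part set by the selection as well. Of the log2 distance between MEF day 0 and iPSC, the mean of days 8 to 10 had covered a median of 50.0% and day 12 a median of 71.0%. The bounds place the plateau near the middle of this distance, and 232 members were at the lowest value of 1 read in MEF day 0, so these shares describe the selection. The remainder lay between day 12 and iPSC, where the median difference was 1.13. At this last step 2098 members (59.9%) were at least 2-fold higher in iPSC, where 16.6% of all autosomal regions were, and none was 2-fold lower, against 23.8%.

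The last 2 steps divided the members into 4 patterns. At least 2-fold higher only between day 12 and iPSC were 1474 members (42.1%, against 11.4% of all autosomal regions), whose median was 46.6 normalised counts at day 10, 59.4 at day 12 and 168 in iPSC. At least 2-fold higher only between day 10 and day 12 were 542 members (15.5%, against 8.27%), with medians of 45.8, 118 and 175. Both steps reached 2-fold in 624 members (17.8%, against 5.14%), with medians of 44.2, 122 and 340. Neither did in 865 members (24.7%, against 75.2%), which started highest, at 60.8, and had 85.5 at day 12 and 127 in iPSC. The 3 patterns with a 2-fold step had similar medians at day 10. The patterns were defined by the differences between day 10, day 12 and iPSC. Day 10 was thus part of the definition, and its medians follow in part from it.

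**Figure D2:**
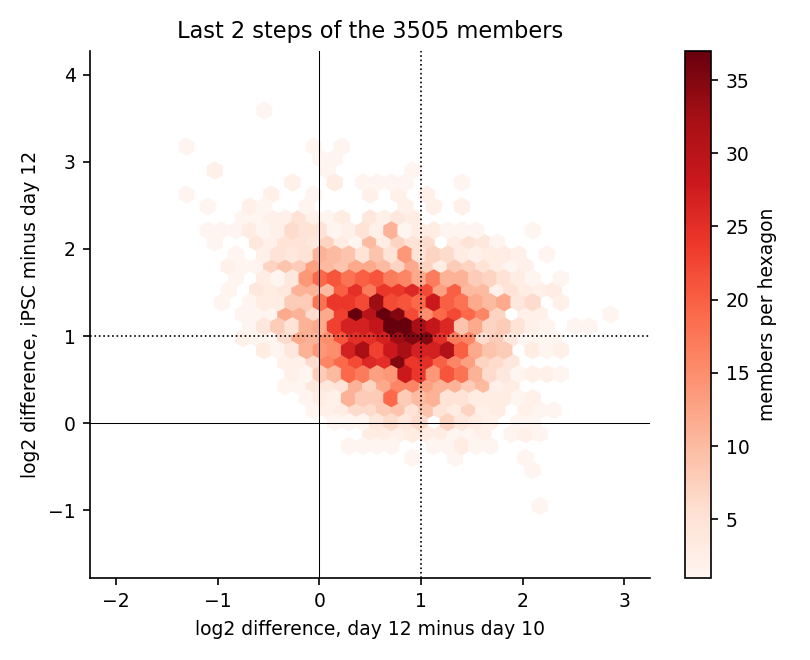
Difference on the log2 scale between day 10 and day 12 (x axis) and between day 12 and iPSC (y axis) for each of the 3505 members, with colour for the number of members per hexagon. Dotted lines mark 2-fold and solid lines no difference. Most members lie right of and above the solid lines, and the group above the horizontal and left of the vertical dotted line, 1474 members, is the largest of the 4.

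Members with a higher final level more often passed 100 normalised counts at day 12, while a larger step to iPSC remained for them. Of the 2183 members with 100 to 200 normalised counts in iPSC, 16.9% had reached 100 at day 12, of the 1044 with 200 to 400 it was 54.6%, and of the 278 with 400 or more it was 93.9%. The share over all autosomal regions was 23.3%. The median difference still to come, from day 12 to iPSC, was 0.96, 1.34 and 1.55 on the log2 scale in the same order. The classes were cut on the iPSC level, which enters this difference and is the neighbour of day 12. Both orders were therefore in large part set by the cut. Their medians at day 8 were 48.9, 47.1 and 45.7 normalised counts, slightly lower with a higher final level, while at day 10 they were 45.8, 52.9 and 64.0, in the order of the final level. Across the 3505 members the log2 values of day 12 had a Pearson r of 0.668 with iPSC (Spearman rho 0.631), 0.507 with day 10 (rho 0.499) and 0.0818 with day 8 (rho 0.0946). Day 10 had an r of 0.279 with iPSC and day 8 an r of -0.0271. Over all autosomal regions, r with iPSC was 0.520 for day 10 and 0.448 for day 8, and r between days 8 and 12 was 0.740. These are descriptions across regions of the same 6 libraries, with the ranges of days 8 to 10 and of iPSC cut by the bounds, and regions are not independent replicates.

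The members with the highest and lowest day 12 values mark the range. The region in row 66420 on chromosome 14 had 24.1 normalised counts in the MEFs, then 42.5, 54.3 and 86.1 on days 8, 9 and 10, 368 on day 12 and 632 in iPSC. Its ratio of day 12 to day 10 was 4.28 (3.45 to 5.33). Row 96090 on chromosome 17 had 18.1, 33.5, 33.6, 94.8, 345 and 982, and row 99004 on chromosome 18 had 16.1, 65.2, 58.5, 97.9, 333 and 687. All 3 were near the upper bound at day 10 already. At the other end, the region in row 30499 on chromosome 11 had 4.02, 39.8, 50.0, 32.4, 12.6 and 115 normalised counts, so that day 12 was 0.389 times day 10 (0.196 to 0.729) before iPSC was 9.15 times day 12 (5.19 to 17.4). The regions in row 71346 on chromosome 15 and row 165020 on chromosome 5 both had 15.3 at day 12, after 30.8 and 31.6 at day 10, and ended at 118 and 120. These 3 regions went down from day 8 or 9 to day 12 and were open only in iPSC.

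The highest iPSC values among members were reached in large part after day 12. The region in row 69052 on chromosome 14 had 14.1 normalised counts in the MEFs, then 39.8, 59.3 and 61.6 on days 8, 9 and 10, 298 on day 12 and 1145 in iPSC, so day 12 stood at 26.0% of the final level. Row 201145 on chromosome 8 had 20.1, 35.3, 34.3, 48.2, 215 and 1016, with day 12 at 21.2% of iPSC. Row 42785 on chromosome 12 had 1 read in MEF day 0, a value that can stand for 0 or 1, and 94.1, 54.3, 96.4, 233 and 1009 normalised counts in the later libraries. In each of the 3, day 12 was at least 2-fold above day 10 and iPSC was more than 3-fold above day 12.

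To place the members among regions with the same start and end, all 12056 autosomal regions closed in MEF day 0 and open in iPSC were divided by their state at days 8 to 10. The members were 29.1% of them. Another 2744 (22.8%) were below 25 on each of the 3 days, 2204 (18.3%) were at 100 or more on each, and 3603 (29.9%) changed class between days. At day 12 the members lay between the low and the open class, with 34.2% at 100 or more, against 2.70% of the regions that had been low (95% Wilson interval 2.15% to 3.37%) and 86.2% of those that had been open (84.7% to 87.5%). Their medians at day 12 were 46.8 normalised counts for the low, 82.8 for the members and 168 for the open class. The step from day 10 differed in the other direction, with medians on the log2 scale of 1.61 in the low class, 0.75 in members and -0.31 in the open class. The mixed class lay near the members, with a median of 73.8 normalised counts at day 12, 28.0% at 100 or more and a median step of 0.97. The classes were cut on days 8 to 10, with day 10 medians of 15.8, 49.8 and 195 in the low, member and open class, and all shared the same bounds in MEF day 0 and iPSC. Their order at day 12 and their smaller distance there follow in part from these bounds and are not a separate result.

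**Figure D3:**
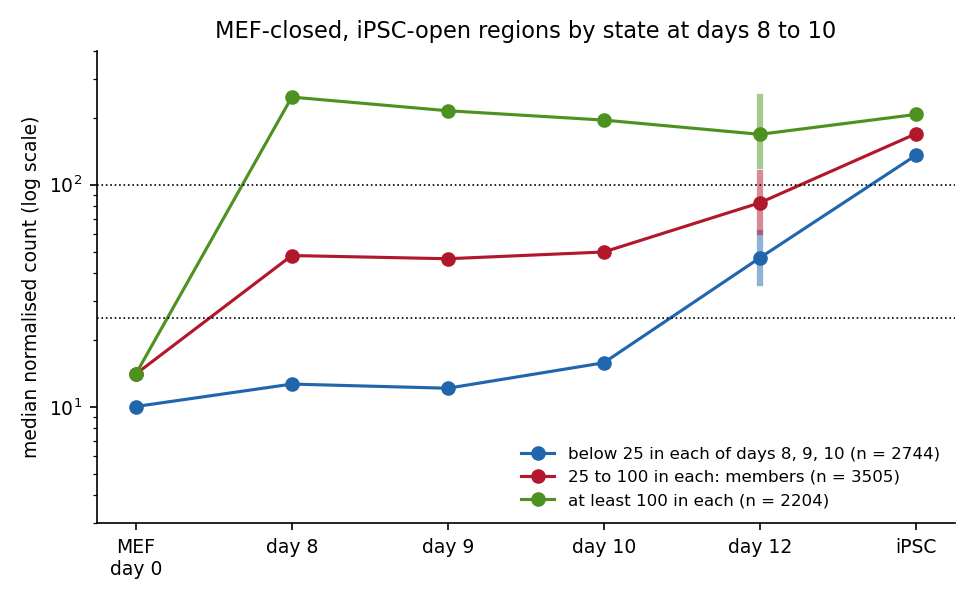
Median normalised counts (log axis) over the 6 libraries for autosomal regions closed in MEF day 0 and open in iPSC, by their state at days 8 to 10. Vertical bars at day 12 run from the 25th to the 75th percentile, and dotted lines mark the bounds. The red line of the members stays between the other 2 classes, with medians at day 12 of 46.8, 82.8 and 168 normalised counts from the lowest to the highest class.

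Most MEF-closed regions that were partly open on days 8 to 10 did not become open in iPSC. Of the 23137 autosomal regions closed in MEF day 0 and within 25 to 100 on each of days 8, 9 and 10, 3505 reached 100 in iPSC and became members, which is 15.1% (95% Wilson interval 14.7% to 15.6%). Another 7361 (31.8%) ended within 25 to 100, and 12271 (53.0%) ended below 25. Of all 88708 MEF-closed autosomal regions, without regard to the intermediates, 13.6% reached 100 in iPSC and 47.7% ended below 25. The excess of 15.1% over 13.6% depended on the bounds, as with the mean of days 8 to 10 in place of each day the share was 13.4%. The median levels of those that ended below 25 and of the members were 54.3 and 48.0 normalised counts at day 8, 47.8 and 46.4 at day 9 and 40.3 and 49.8 at day 10. The sets thus differed little at days 8 and 9, with the members lower, and crossed at day 10.

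At day 12, which the rule did not use but which lies next to iPSC, by whose level the sets were formed, the same sets were apart. The median was 82.8 normalised counts in members (quartiles 61.2 and 113), 39.6 in regions ending within 25 to 100 (28.8 and 53.1) and 22.5 in regions ending below 25 (16.2 and 31.5). At least 100 normalised counts were reached by 34.2% of members, 1.07% of the middle set and 0.0326% of those ending below 25, which is 4 of 12271 regions. At least 2-fold higher than at day 10 were 33.3% of members, 2.20% of the middle set and 0.0244% of the last, and at least 2-fold lower were 0.171%, 9.20% and 40.0%. Within bands of day 10 the sets were apart as well, but such bands leave the division by iPSC level in place. Among regions with 25 to 50 normalised counts at day 10, the median at day 12 was 69.3 in the 1788 members and 19.8 in the 8884 regions that ended below 25. Among regions with 75 to 100 it was 121 in the 465 members and 43.2 in 584 such regions.

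**Figure D4:**
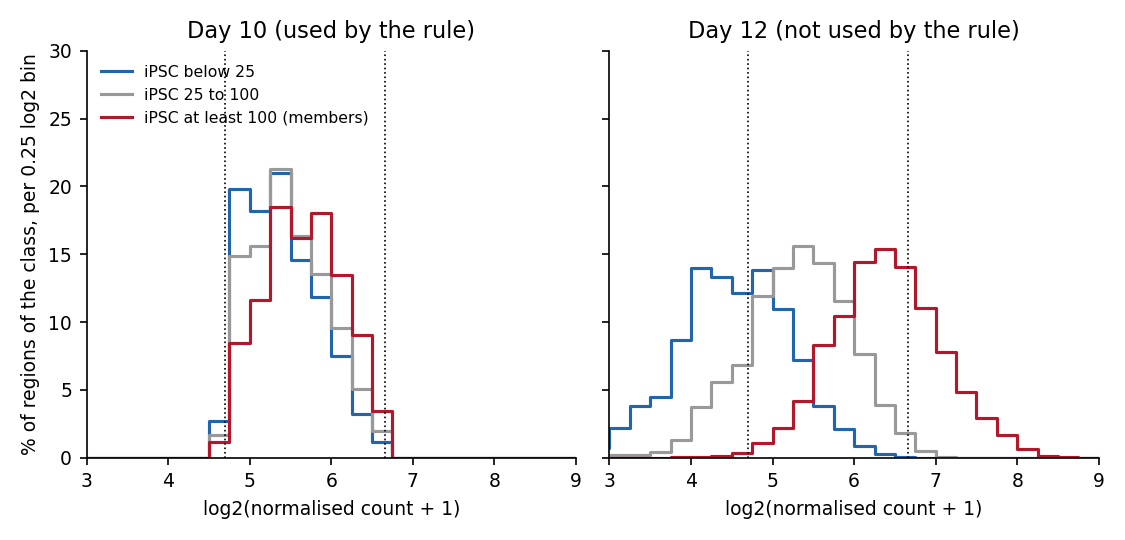
Distribution of log2(normalised count + 1) at day 10 (left) and day 12 (right) for the 23137 MEF-closed regions partly open on days 8, 9 and 10, as the share of each set per bin, by their level in iPSC. Dotted lines mark 25 and 100 normalised counts. The 3 curves overlap at day 10 and are shifted apart at day 12, with medians of 22.5, 39.6 and 82.8 normalised counts.

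The MEF bound was examined in the same way. With days 8 to 10 and iPSC bounded as before, 5275 autosomal regions had 25 to 100 normalised counts in MEF day 0 and 7100 had 100 or more. At day 12 they had medians of 86.4 and 93.6 normalised counts, against 82.8 in members, and 35.2% and 41.6% of them had reached 100, against 34.2%. Their median levels at day 10 were 53.7 and 64.8, against 49.8, so they had also started higher. Without any bound on MEF day 0 the set grew to 15880 regions, of which 37.8% had at least 100 at day 12. A day 12 value at least 2-fold above day 10 was seen in 33.3% of members, 29.0% of the regions with 25 to 100 in MEF day 0 and 18.3% of those with 100 or more. Without the MEF bound, the 2-fold share was 25.1%. The number of members, and to a smaller extent their day 12 values, thus rested on the MEF library.

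Many members lay near a bound. In MEF day 0, 300 members had 12 reads (24.1 normalised counts), just inside the bound, and 253 otherwise qualifying regions had 13 reads (26.1) and were left out. In iPSC, 58 members had 80 reads (100.3 normalised counts) and 57 regions had 79 (99.0). On the plateau the numbers were smaller, such as 56 members with 28 reads at day 8 (25.3) and 48 regions with 27 (24.4). At the upper side of day 8, 13 members had 110 reads (99.5) and 15 regions had 111 (100.5). Each bound thus cut through a continuous range. For day 9 the lower side had 64 members at 36 reads (25.7) and 48 regions at 35 (25.0), and the upper side 7 members at 140 reads (99.9) and 5 regions at 141 (100.7). For day 10 these were 40 members at 32 reads (25.3) and 26 regions at 31 (24.5), and 10 members at 126 reads (99.5) and 7 regions at 127 (100.3). The 95% exact Poisson interval of the read count lay within the bounds in 1268 members (36.2%) for MEF day 0, in 2408 to 2708 for the single days 8 to 10, in 2698 (77.0%) for iPSC and in all 5 libraries for 431 members (12.3%). Of these 431, 174 had reached 100 at day 12, which is 40.4% (35.8% to 45.1%), and their median at day 12 was 91.8 normalised counts, both above the values of all members, while their median step from day 10, 0.79, was close. The 431 were chosen on the libraries of the rule. Their medians were also higher at day 10 (53.7 normalised counts against 49.8) and in iPSC (192 against 169). Their higher day 12 values therefore describe this narrower selection. As the interval lay within all bounds in only 12.3% of members, most single members could cross a bound by counting error alone. The Poisson intervals take reads as independent. Where both ends of a fragment were counted, they would be too narrow and the shares within the bounds too high. Among regions with 2 to 21 reads, even numbers were 1.53 times as frequent as odd ones in MEF day 0.

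Members were spread over all 19 autosomes. They made up 1.34% of the regions of chromosome 7 (95% Wilson interval 1.16% to 1.55%) as the lowest and 1.86% of chromosome 18 (1.58% to 2.19%) as the highest, with a mean of 1.62% and an SD of 0.136 percentage points over the 19 autosomes. Relative to the regions that were MEF-closed and iPSC-open, they were 26.3% on chromosome 7 to 32.3% on chromosome 17. The share of members with at least 100 at day 12 was lowest on chromosome 2, at 25.5% (67 of 263 members, interval 20.6% to 31.1%), and highest on chromosome 18, at 45.0% (63 of 140, 37.0% to 53.3%). These intervals treat regions as independent, and the 2 chromosomes were picked as the extremes of 19.

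X-linked regions were outside the rule but can be held to the same bounds. On the X chromosome 165 of 5357 regions met them, which is 3.08% (95% Wilson interval 2.65% to 3.58%) and above the share of every autosome. The X chromosome also had a larger share of MEF-closed, iPSC-open regions of any kind, 14.5% of its regions against 5.52% of autosomal ones, and within these the partly open class was smaller, at 21.2% against 26.3% to 32.3% on the autosomes. Of the 165 regions 58 had at least 100 normalised counts at day 12, or 35.2% (28.3% to 42.7%), a share close to the 34.2% of members. The values are not split by allele, so that an X-linked count sums both X chromosomes of the cells. The paper reports that the inactive X chromosome became accessible again during reprogramming, with both X chromosomes accessible in iPSCs. X-linked counts in the MEFs and in iPSC therefore do not sum X chromosomes in the same state. Whether this contributed to the larger X-linked shares was not tested.

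**Figure D5:**
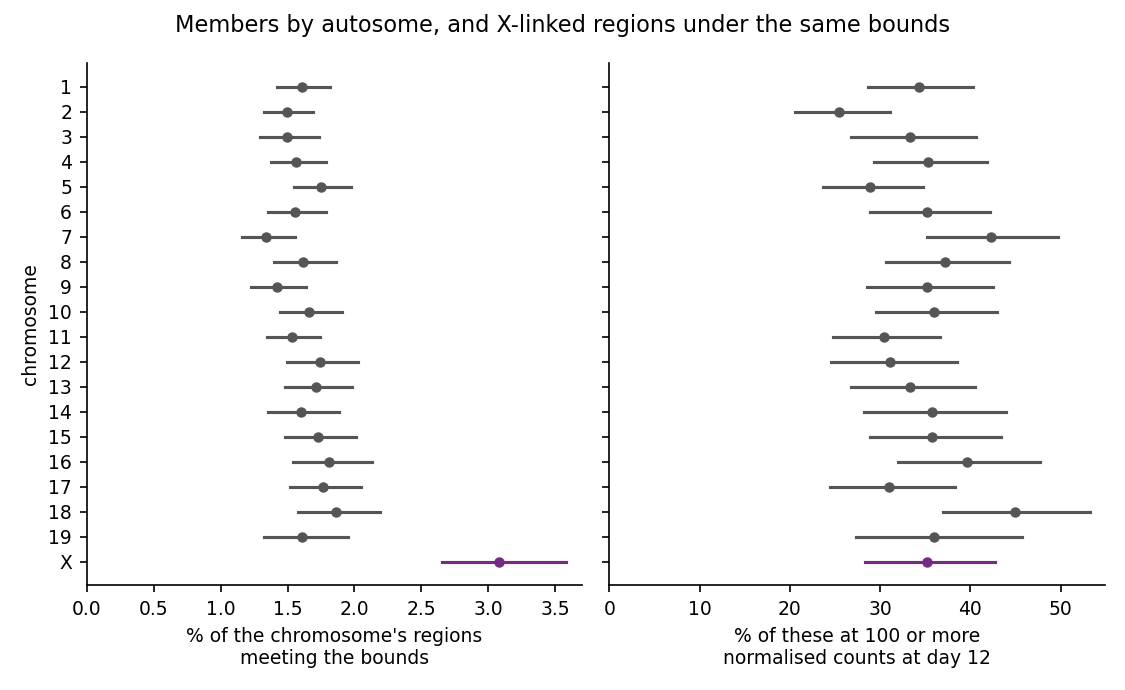
Left, share of each chromosome's regions that met the bounds. Right, share of these with at least 100 normalised counts at day 12. Points are shares, lines 95% Wilson intervals over regions, autosomes in grey and the X chromosome in purple. The X chromosome lies at 3.08% on the left, right of all autosomes, and at 35.2% on the right, among them.

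The row order of the table was used to ask whether members lay near each other. Rows are grouped by chromosome, and their order within a chromosome is not stated in the sources used here. A member was followed by another member in the next row in 93 cases, 2.65% of members (95% Wilson interval 2.17% to 3.24%), where 1.61% of all autosomal regions were members. With equal autosomal totals it was 4.80%, where 2.98% met the bounds. The share was 2.88% at 2 rows, 2.40% at 5 rows, 1.83% at 10 rows and 1.64% at 50 rows. Members were thus more frequent than average within a few rows of another member. Most members stood alone, with 3325 without a member in an adjacent row, 81 pairs and 6 runs of 3. The first run, rows 54969 to 54971 on chromosome 13, had 54.9, 122 and 92.7 normalised counts at day 12 after 36.3, 56.9 and 51.3 at day 10, and 114, 267 and 208 in iPSC. Non-members 1 row from a member had a median log2 difference of 0.62 from MEF day 0 to iPSC, where those 50 rows away had -0.09. Of these adjacent non-members 8.12% were MEF-closed and iPSC-open, against 3.98% of all autosomal non-members. At day 12 they had a median of 44.1 normalised counts, against 41.4.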

How the data were processed

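ATAC-seq (Omni-ATAC protocol) was performed by the authors on 6 libraries, 1 per time point. The authors aligned the reads to GRCm38/mm10 and called peaks through the pipeline of the ENCODE consortium, built a count matrix with DiffBind (3.8), divided it by DESeq2 (1.21.22) size factors and deposited log2 values, not split by allele. Normalised counts were computed as 2 to the power of the deposited log2 value minus 1, so the pseudocount was 1. Within each library all were whole multiples of the lowest value (100.0% within 0.001), which gave reads per region. The lowest was 1 read in every library, so regions with 0 reads may have been raised to 1. Normalised levels are comparable between libraries only if the typical region does not change.

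Groups came from the time point labels, and columns were matched to sample titles. Members, bounds and comparison classes were chosen with earlier results of these data known. Named regions were those with the 3 highest and 3 lowest day 12 values, the 3 highest iPSC values, the 3 nearest to the member medians, the regions at the bounds and the first longest run. Shares have 95% Wilson intervals, ratios of reads exact (Clopper-Pearson) intervals, and differences are on the log2 scale. No test across libraries was made. Scripts were tested on simulated data. Alternatives were other bounds, other scalings, thinned reads, the mean of days 8 to 10, another pseudocount and a 4-fold threshold. No coordinates or gene names were used. Python 3.11.15, numpy 2.4.6, pandas 2.3.3, scipy 1.17.1 and matplotlib 3.10.9 were used.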

Additional observations from a re-analysis of the deposited data

How the results depend on the processing

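The number of members was 3553 with bounds of 20 and 80, 3036 with 30 and 120 and 2871 with reads thinned to the shallowest library, but 6498 with equal autosomal totals, 2036 under quantile normalisation, 5347 with the mean of days 8, 9 and 10 and 15880 without the day 0 bound, which was chosen after seeing the data. Similar numbers did not mean the same regions. Bounds of 20 and 80 kept 59.3% of the members, bounds of 30 and 120 kept 62.5%, thinned reads 54.3% and quantile normalisation 58.1%. The mean of days 8 to 10 and the removed day 0 bound kept all members. Equal totals kept 84.0% of the members. They moved the median step of all autosomal regions from day 10 to day 12 from -0.07 to 0.07. The share open at day 12 was 37.0% with bounds of 20 and 80, 31.6% with 30 and 120, 51.6% with equal totals, 48.6% under quantile normalisation, 32.0% with thinned reads and 37.8% without the day 0 bound. Of all autosomal regions, 29.2% (bounds of 20 and 80), 19.3% (30 and 120) and 31.2% (equal totals) were open at day 12. The other backgrounds were 28.3% (quantile), 18.6% (thinned reads) and 23.3% (no day 0 bound). The median step from day 10 to day 12 stayed positive, at 0.70 with bounds of 30 and 120, 0.97 with equal totals, 0.93 under quantile normalisation, 0.69 with thinned reads, 0.79 with the mean of days 8 to 10, 0.65 with a pseudocount of 10 and 0.64 without the day 0 bound. The share at least 2-fold higher was 30.5% with bounds of 30 and 120, 48.1%, 46.1% and 30.5% under the 3 alternatives of scaling and depth in the same order, 37.1% with the mean, 25.8% with the pseudocount, 25.1% without the day 0 bound and 1.80% at 4-fold. Over all autosomal regions it was 13.4% with the other bounds, with the mean and without the day 0 bound. Under the 3 alternatives of scaling and depth it was 16.7%, 16.8% and 13.6%, with the pseudocount 7.70% and at 4-fold 2.08%. The share reaching the iPSC bound was 16.4%, 13.6%, 18.4%, 13.2%, 13.3%, 13.4% and 25.8% with bounds of 20 and 80, bounds of 30 and 120, equal totals, quantile normalisation, thinned reads, the mean and no day 0 bound, where the share among all regions meeting the same MEF bound, or none, was 16.4%, 11.1%, 17.4%, 12.3%, 10.7%, 13.6% and 27.9%. The share with a member in the next row was 4.80% with equal totals, 1.82% under quantile normalisation, 4.66% with the mean and 10.2% without the day 0 bound, where 2.98%, 0.933%, 2.45% and 7.28% of autosomal regions were members. The cause of these changes was not tested. No paired analysis was possible because each time point had 1 library. The lower bound fell on the fewest reads in MEF day 0, at 12.45, through its size factor of 0.498. Its 27121103 reads in regions were not the fewest of the 6 libraries, as iPSC had 22067333.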
